A study of Mus musculus with 6 samples.

Results

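The genes described here are the 10 members of the insulin-like growth factor (IGF) system that were chosen by symbol from the deposited counts, out of 43472 gene symbols. They are 2 ligands (Igf1 and Igf2), 2 receptors (Igf1r and Igf2r) and 6 binding proteins (Igfbp2 to Igfbp7), and all 10 were found and passed the filter on low counts. Whole intervertebral discs (IVDs) of the thoracic and lumbar spine were taken at postnatal day 20 (P20) from C57B6/J mice, and poly(A) RNA was sequenced. The 3 mutant libraries came from Col2Cre; Adgrg6 f/f mice, in which a Cre recombinase under type II collagen regulatory sequence deletes the floxed adhesion G protein-coupled receptor gene Adgrg6 (Gpr126). This Cre acts in all compartments of the IVD from embryonic stages, and also in periosteum. The 3 control libraries are given as wild type in the genotype labels, as Col2Cre controls in the sample titles and as Cre (-) littermates in the study's results. It is therefore not settled whether the controls carried Cre. Each library is a pool of 2 to 3 mice, and no sex is given.

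IGF1 and IGF2 are small secreted growth factors, related to insulin, that drive the growth and matrix synthesis of chondrocytes in the growth plate and the disc. Both act mainly through IGF1R, a receptor tyrosine kinase that signals through insulin receptor substrates, PI3K and AKT, whereas IGF2R takes up IGF2 for lysosomal degradation. In tissue fluid most IGF is held by IGF binding proteins, which control how much ligand reaches the receptor and which are themselves cut by proteases such as PAPP-A, PAPP-A2 and HTRA1.

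Between 9061491 and 12017008 reads were counted on genes in a library, and mutant and control libraries were compared for 16152 genes with the quasi-likelihood test of edgeR. Expression is given in CPM, counts scaled to the same library size with TMM factors, and a log2 fold change is mutant over control. SE stands for standard error. Gpr126 itself was at 138, 124 and 106 CPM in mutant replicates 1, 2 and 3 and at 124, 108 and 94.3 CPM in the control replicates. The groups overlapped, with a log2 fold change of 0.17 ± 0.18 (SE, edgeR, unadjusted p = 0.367), so a loss of Gpr126 RNA is not seen in these counts. The counts are given per gene, and reads on the deleted part were not looked at. Defining genes of the labelled tissue were present, as Acan was at 3565 to 5462 CPM and Col2a1 at 62708 to 124063 CPM over the 6 libraries. Control replicate 1 stood apart by skeletal muscle RNA, with 12 muscle markers at a summed 4929 CPM. The sums were 217 and 278 CPM in the other controls and 308 to 335 CPM in the mutants. Of these 12 markers, 9 were lower in mutant IVDs at an unadjusted p under 0.05 from edgeR, where 4.32% of all genes tested were. Without control replicate 1 the log2 fold change was 1.48 for Acta1, 1.69 for Myh1 and 1.21 for Ckm. It was -0.15 for Myh2, -0.18 for Myh4 and -0.16 for Tnni2 (edgeR, unadjusted p = 0.860, 0.749 and 0.434). The members' values without this library are therefore given below.

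Of the 10 IGF genes, 5 were higher in mutant IVDs at an unadjusted p under 0.05 from edgeR, where 2.89% of all genes tested were. These were both ligands, Igf1 and Igf2, and the binding proteins Igfbp3, Igfbp4 and Igfbp5. None of the 10 was lower at this threshold, where 4.32% of all genes were, and none had all mutant libraries below all control libraries, as 5.96% of all genes did. For the same 5 genes all 3 mutant libraries lay above all 3 control libraries, which held for 5.45% of all genes tested. After Benjamini-Hochberg adjustment over all genes, 0 of the 10 had an adjusted p under 0.05 in edgeR, where 0.00619% of all genes (1 gene) did. DESeq2 gave 1 of the 10 at this threshold, Igf1, where it gave 0.267% of the genes with an adjusted p (52 genes), and limma-voom gave 0 of the 10 and 0% of all genes. The median log2 fold change of the 10 genes was 0.41, compared with -0.01 for all genes tested. Over all genes 467 were higher and 697 lower at the unadjusted threshold, and 233 and 990 with library totals alone, a scaling that moved the median of all genes to -0.13. Neither receptor and none of Igfbp2, Igfbp6 and Igfbp7 passed the unadjusted threshold. In a whole IVD, a change in RNA per cell and a change in the number of cells that express a gene cannot be told apart.

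**Figure D1:**
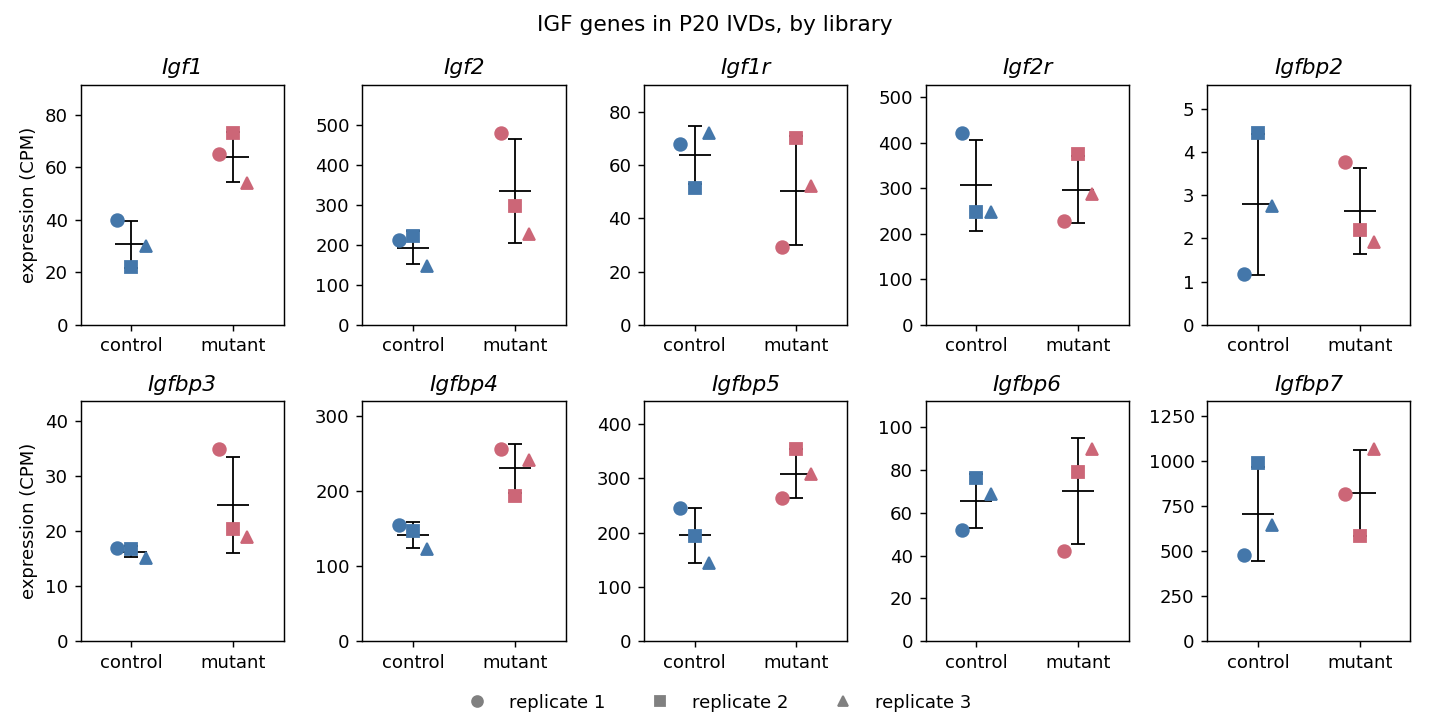
Expression of each IGF gene in CPM (vertical axis, from 0) in the 3 control libraries (blue) and the 3 mutant libraries (red), with marker shapes for replicate numbers and black bars for the mean and SD. For Igf1, Igf2, Igfbp3, Igfbp4 and Igfbp5 every red point lies above every blue point, and for the other 5 genes the groups overlap.

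The start regions of the 5 genes that were higher are shown because they were compared for shared sequence motifs. They were taken from RefSeq on GRCm38.p6, from 250 bases before to 50 bases after a transcript start, which gave 14 windows for the 10 IGF genes. Capitals mark matches, on either strand, to the TATA box with the letters TATAAA, the GC box with GGGCGG, the motif CCAAT, the palindrome of STAT factors with TTCNNNGAA or the cyclic AMP response element with TGACGTCA. A window in small letters throughout holds none of them. Igf1 lies at chr10:87860861-87861160 on the plus strand, Igfbp3 at chr11:7213874-7214173 on the minus strand, Igfbp4 at chr11:99040994-99041293 on the plus strand and Igfbp5 at chr1:72874816-72875115 on the minus strand. Igf2 has 4 windows, of which the one with the most CpG dinucleotides is printed, at chr7:142658755-142659054 on the minus strand.
Igf1: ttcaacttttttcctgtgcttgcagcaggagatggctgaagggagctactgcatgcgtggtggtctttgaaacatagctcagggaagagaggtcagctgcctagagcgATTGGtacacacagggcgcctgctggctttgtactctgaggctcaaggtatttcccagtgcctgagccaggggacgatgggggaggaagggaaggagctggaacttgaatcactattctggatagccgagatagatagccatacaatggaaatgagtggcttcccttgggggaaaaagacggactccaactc
Igf2: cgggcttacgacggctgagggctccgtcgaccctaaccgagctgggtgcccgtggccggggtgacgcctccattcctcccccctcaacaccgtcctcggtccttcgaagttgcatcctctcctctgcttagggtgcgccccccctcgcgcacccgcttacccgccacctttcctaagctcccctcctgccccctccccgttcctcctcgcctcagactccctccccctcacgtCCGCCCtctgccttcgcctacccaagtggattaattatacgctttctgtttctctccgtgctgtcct
Igfbp3: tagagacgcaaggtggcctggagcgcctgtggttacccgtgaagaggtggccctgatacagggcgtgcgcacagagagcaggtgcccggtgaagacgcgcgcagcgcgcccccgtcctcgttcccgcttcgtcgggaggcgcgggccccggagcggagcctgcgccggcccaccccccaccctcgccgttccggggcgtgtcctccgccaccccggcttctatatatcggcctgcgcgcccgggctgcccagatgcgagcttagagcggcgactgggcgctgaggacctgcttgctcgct
Igfbp4: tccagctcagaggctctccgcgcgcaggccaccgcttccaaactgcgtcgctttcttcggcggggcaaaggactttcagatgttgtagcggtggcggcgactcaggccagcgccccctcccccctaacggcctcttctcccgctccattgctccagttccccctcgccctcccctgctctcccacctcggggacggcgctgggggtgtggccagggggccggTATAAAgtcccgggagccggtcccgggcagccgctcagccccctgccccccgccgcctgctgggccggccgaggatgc
Igfbp5: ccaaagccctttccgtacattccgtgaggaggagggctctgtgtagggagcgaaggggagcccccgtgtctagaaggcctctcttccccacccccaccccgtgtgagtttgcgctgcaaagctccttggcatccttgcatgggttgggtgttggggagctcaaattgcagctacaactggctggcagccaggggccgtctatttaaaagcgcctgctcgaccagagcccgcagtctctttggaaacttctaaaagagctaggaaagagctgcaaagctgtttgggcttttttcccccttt

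The 5 printed windows differed in composition. Igfbp3 held 37 CpG dinucleotides, Igfbp4 held 27 and the Igf2 window held 24, whereas Igfbp5 held 10 and Igf1 held 6, beside a median of 7 in 32851 RefSeq windows of this length. A TATA box was found in Igfbp4, a GC box in the Igf2 window and the motif CCAAT, on the opposite strand, in Igf1. Over all 14 windows the letters of the TATA box were in 2 (Igfbp4 and, on the opposite strand only, Igfbp6). CCAAT was in 3 (Igf1, an Igf2 window not printed and Igfbp6) and a GC box in 6 (a pair of Igf2 windows and those of Igf1r, Igf2r, Igfbp2 and Igfbp7). The letters of each were thus also found in genes that were not higher. Whether a match works as a promoter element was not tested, and near matches were not counted. The TATA box, the GC box and CCAAT occur in 13.6%, 35.7% and 37.4% of all windows. The STAT palindrome, found in 8.30% of all windows, and the cyclic AMP response element, found in 1.79%, were in none of the 14 windows of the IGF genes. A motif outside these windows was not looked for.

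Igf1, on chromosome 10 from 87858265 to 87937042 and the main growth hormone target among the ligands, had the largest log2 fold change of the 10 genes in edgeR. It was at 65.1, 73.2 and 54.2 CPM in mutant replicates 1, 2 and 3 and at 39.9, 22 and 30.0 CPM in control replicates 1, 2 and 3. The lowest mutant library lay above the highest control library. The mutant mean was 64.2 ± 9.54 CPM and the control mean 30.6 ± 8.98 CPM (SD, n = 3 each). This is a 2.09-fold difference (95% confidence interval 1.48 to 2.97) and a difference of 1.07 ± 0.23 (SE) on the log2 scale (edgeR, unadjusted p = 0.000809, adjusted p = 0.545). By unadjusted p, Igf1 ranked 24 among the 16152 genes tested. With any 1 library left out, its log2 fold change lay between 0.87 and 1.32 and its unadjusted p between 0.000118 and 0.00416 in edgeR. The log2 fold change was highest without control replicate 1, the library with muscle RNA. Igf1os, on the opposite strand, had 6.34% as many counts as Igf1 and shares 0 exon bases with it. Only by 2 other ways of testing did Igf1 pass after adjustment over all genes, with an adjusted p of 0.0136 from DESeq2 and of 0.00139 from edgeR without the filter on low counts, where 0.927% of all genes (245 genes) passed, and its adjusted p over all alternatives ran from 0.00139 to 0.999.

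Igf2, the ligand of fetal growth, is imprinted and lies on chromosome 7 from 142650766 to 142666816. Mutant replicates 1, 2 and 3 had 479.6, 298 and 228 CPM, and control replicates 1, 2 and 3 had 211, 221 and 147 CPM. The groups did not overlap, but the lowest mutant library and the highest control library were close. Mutant minus control came to 0.80 ± 0.28 (SE) on the log2 scale (edgeR, unadjusted p = 0.0187, adjusted p = 0.676), or 1.74-fold with a 95% confidence interval of 1.12 to 2.69. The call rested on single libraries, with an unadjusted p from edgeR of 0.0880 without mutant replicate 1 (log2 fold change 0.48) and of 0.0696 without control replicate 3 (0.64). Without control replicate 1 the log2 fold change was 0.88 (edgeR, unadjusted p = 0.0193). H19, the noncoding RNA that shares an imprinting control region with Igf2, had a log2 fold change of 0.13 ± 0.30 (SE, edgeR, unadjusted p = 0.673), with 1119 to 2103 CPM in mutant and 1104 to 1655 CPM in control libraries. The log2 fold change of H19 was -0.18 without mutant replicate 1 and 0.32 without control replicate 1. For both genes mutant replicate 1 was the highest library. GENCODE M21 also annotates Gm49394 on the strand of Igf2, which covers 62.8% of its exon bases and was not analysed here.

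Igf1r, on chromosome 7 from 67952827 to 68233668, encodes the receptor tyrosine kinase for both ligands. It was at 29.1, 70.0 and 52.1 CPM in mutant replicates 1, 2 and 3 and at 68.0, 51.4 and 72.1 CPM in the control replicates. Mutant replicate 1 was the lowest of the 6 libraries, and the other mutant libraries lay within the range of the controls. The log2 fold change was -0.34, with a 95% confidence interval from -0.97 to 0.29 (edgeR, unadjusted p = 0.260). Without mutant replicate 2 it was -0.64 and passed the unadjusted threshold (edgeR, unadjusted p = 0.0392), and without mutant replicate 1 it was -0.03 (edgeR, unadjusted p = 0.904).

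Igf2r, on chromosome 17 from 12682406 to 12769664, encodes the receptor that clears IGF2 and sorts lysosomal enzymes. It was at 229, 375 and 287 CPM in the mutant replicates and at 422, 248 and 249 CPM in the control replicates, so that the groups overlapped. The log2 fold change was -0.04, with a 95% confidence interval from -0.64 to 0.55 (edgeR, unadjusted p = 0.871). Without control replicate 1, the highest library, it was 0.28 (edgeR, unadjusted p = 0.270). Airn, the noncoding RNA that silences the paternal Igf2r allele, lies on the opposite strand from 12741311 to 12860136 and overlaps 28354 bases of Igf2r. Airn held 24601 counts in all and Igf2r held 18675, and the ratio of Airn to Igf2r counts stayed between 1.12 and 1.38 in every library. In the GENCODE M21 annotation 0 bases of Igf2r exons fall in Airn exons. The strand setting of the counts is not given in the sources used here, so reads from these genes cannot be told apart with certainty. With the counts of Airn added to those of Igf2r, the log2 fold change was -0.07, a value computed after the data were seen.

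Igfbp4, on chromosome 11 from 99041244 to 99054392, encodes a binding protein that mostly restrains IGF action until PAPP-A cuts it. It was at 255, 193 and 241 CPM in mutant replicates 1, 2 and 3 and at 155, 146 and 122 CPM in the control replicates. The groups were clearly apart, with means of 229 ± 32.7 CPM and 141 ± 16.9 CPM (SD, n = 3 each). The genotypes differed by 0.70 ± 0.19 (SE) on the log2 scale (edgeR, unadjusted p = 0.00409, adjusted p = 0.629), or 1.63-fold with a 95% confidence interval of 1.21 to 2.18. The unadjusted p stayed under 0.05 with any 1 library left out, at most 0.0178 without control replicate 3, as it did for Igf1.

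Igfbp5, on chromosome 1 from 72857932 to 72874884, encodes a binding protein that attaches to extracellular matrix and bone mineral. Mutant replicates 1, 2 and 3 had 263, 353 and 308 CPM, and control replicates 1, 2 and 3 had 246, 194 and 144 CPM. Mutant replicate 1 lay close above control replicate 1. The difference was 0.66 ± 0.23 (SE) on the log2 scale (edgeR, unadjusted p = 0.0162, adjusted p = 0.676), or 1.58-fold with a 95% confidence interval of 1.11 to 2.26. The unadjusted p from edgeR was 0.0626 without control replicate 3 (log2 fold change 0.50) and 0.0538 without mutant replicate 2 (0.57). Without control replicate 1 the log2 fold change was 0.89 (edgeR, unadjusted p = 0.00285).

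Igfbp3, on chromosome 11 from 7206086 to 7213923, encodes the main carrier of IGF in blood. It was at 34.8, 20.4 and 19 CPM in mutant replicates 1, 2 and 3 and at 16.9, 16.8 and 15.1 CPM in the control replicates. Mutant replicate 1 was far above the rest, and the other mutant libraries lay a little above the controls. Its mutant level was higher by 0.60 ± 0.25 (SE) on the log2 scale (edgeR, unadjusted p = 0.0345, adjusted p = 0.676), or 1.52-fold with a 95% confidence interval of 1.04 to 2.23. Without mutant replicate 1 the log2 fold change was 0.32 (edgeR, unadjusted p = 0.163). The unadjusted p was also above 0.05 without control replicate 2 (0.0615) and without control replicate 3 (0.0840).

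The other 3 binding proteins overlapped between the groups. Igfbp7, on chromosome 5 from 77349240 to 77408041, encodes a secreted protein that binds IGF weakly and is found in vessel walls and matrix. It was at 815, 584 and 1063 CPM in the mutant replicates and at 476, 989 and 647 CPM in the control replicates, with a log2 fold change of 0.22 and a 95% confidence interval from -0.47 to 0.91 (edgeR, unadjusted p = 0.492). Its last exon shares 85 bases with Polr2b on the other strand, which had 11.2% as many counts. Igfbp6, on chromosome 15 from 102144362 to 102149511, encodes a binding protein that prefers IGF2. It was at 42.3, 78.9 and 89.5 CPM in the mutant replicates and at 51.7, 76.1 and 68.9 CPM in the control replicates, a log2 fold change of 0.10 with a 95% confidence interval from -0.50 to 0.70 (edgeR, unadjusted p = 0.716). Igfbp2, on chromosome 1 from 72824503 to 72852474, encodes a binding protein abundant in fetal tissue and was the least expressed of the 10 genes. It had 33, 27 and 18 counts in the mutant replicates and 11, 40 and 35 counts in the control replicates. Its log2 fold change was -0.09 (edgeR, unadjusted p = 0.883). A change of up to 2.32-fold upward and down to 0.382-fold lay within the 95% confidence interval. Igfbp1, which is not among the 10 genes, had 11 counts in all 6 libraries together.

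**Figure D2:**
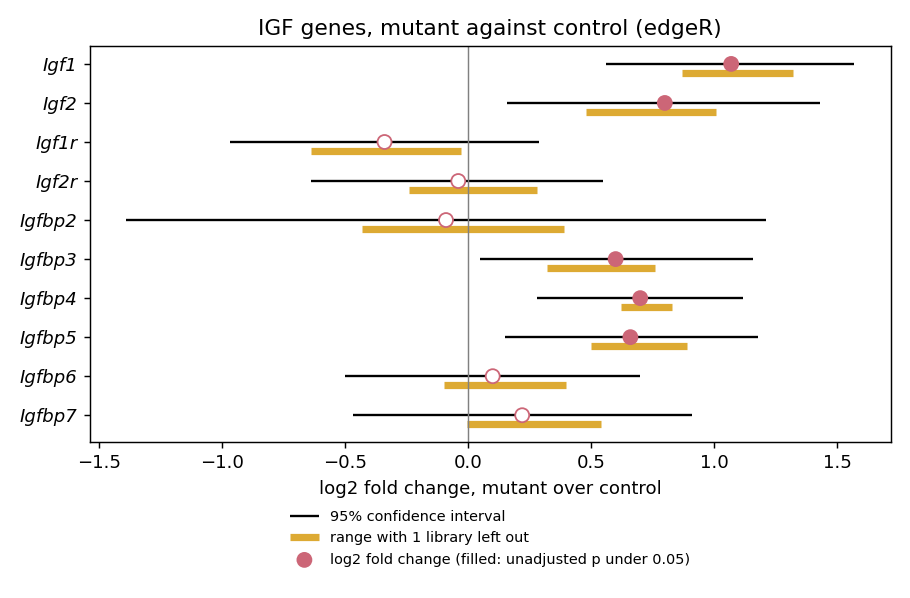
Log2 fold change of mutant over control for each IGF gene (points, filled at an unadjusted p under 0.05 from edgeR), with the 95% confidence interval (black) and the range obtained with each library left out in turn (yellow). The intervals of Igf1, Igf2, Igfbp3, Igfbp4 and Igfbp5 lie above 0, and those of both receptors, Igfbp2, Igfbp6 and Igfbp7 include 0.

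Levels of different genes were compared per length, as CPM divided by the kilobases (kb) of all annotated exons of a gene. In control IVDs Igfbp7 led with 582 ± 216 CPM per kb (SD, n = 3), above 99.6% of the genes tested with a known length. It was 9.88 times the next gene, Igfbp6, at 58.9 ± 11.3 CPM per kb. Igfbp6 in turn lay above the next gene in every control library. Then came Igf2 at 33.7 ± 7.03, Igf2r at 32.9 ± 10.8, Igfbp5 at 32.4 ± 8.51 and Igfbp4 at 31.9 ± 3.82 CPM per kb, which did not differ beyond the spread between libraries. Igfbp3 followed at 5.19 ± 0.324 CPM per kb, close to the median gene at 3.90 CPM per kb. Igf1r at 3.80 ± 0.652, Igf1 at 3.09 ± 0.907 and Igfbp2 at 1.51 ± 0.884 CPM per kb came last, and among these 3 each overlapped with the next. Igf2 RNA was thus the more abundant ligand RNA in every library.

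In mutant IVDs the order changed among the close genes only. Igf2 was at 58.6 ± 22.7, Igfbp4 at 51.9 ± 7.40 and Igfbp5 at 51.3 ± 7.46 CPM per kb, all with a mean above Igf2r at 31.9 ± 7.92 CPM per kb. Igf1 was at 6.48 ± 0.964 CPM per kb and Igf1r at 3.00 ± 1.22 CPM per kb, so that the 2 genes changed places. The summed level of the 6 binding proteins was 522 to 959 CPM per kb in control and 664 to 1072 CPM per kb in mutant libraries, with an overlap. Without Igfbp7, which held 72.8% to 85.2% of the sum, the other 5 binding proteins came to 119.8 to 142 CPM per kb in control libraries. In mutant libraries they came to 153 to 193 CPM per kb, with no overlap. Igfbp3, Igfbp4 and Igfbp5, which were apart by themselves, are part of this sum, so its gap is not separate from theirs. Of single genes tested, 5.45% had all mutant libraries above all control libraries. No test was made on such sums, since the genes were chosen with results known.

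**Figure D3:**
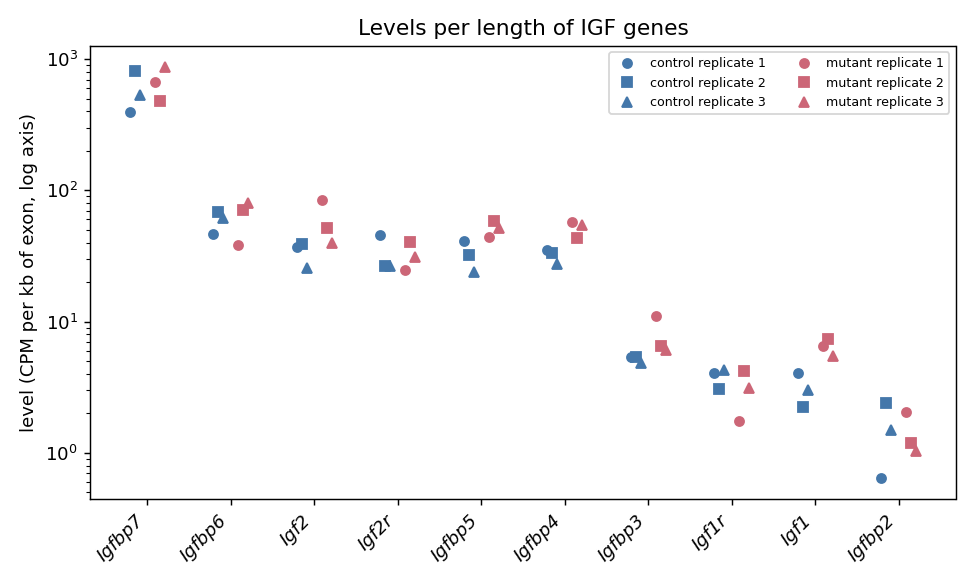
Level of each IGF gene in CPM per kb of exon (log axis) in each control (blue) and mutant (red) library, ordered by the control mean. Igfbp7 lies above the other 9 genes in every library, and the red points of Igf1 lie above the blue ones.

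Ratios of counts per kb within a library need no scaling between libraries. The log2 ratio of Igf1 to Igf1r was 1.92, 0.83 and 0.82 in mutant replicates 1, 2 and 3 and -0.01, -0.46 and -0.50 in the control replicates, with no overlap. It differed by 1.51 between the group means, and by 1.15 without mutant replicate 1. This was the only computed ratio without overlap, and it was not among those planned. The planned ratios were that of ligands to binding proteins and that of Igf1 to Igf2. Igf1 was apart between the groups by itself, so its ratio to Igf1r is not separate from that difference. The log2 ratio of Igf2 to Igf2r was 1.77, 0.37 and 0.37 in the mutant replicates and -0.30, 0.54 and -0.06 in the control replicates, so that the groups overlapped. The ratio of Igf1 to Igf2 and the ratio of both ligands to all 6 binding proteins also overlapped, with differences between the group means of 0.35 and 0.50 on the log2 scale. With Igfbp7 left out of the binding proteins, the ligand ratio overlapped too. Its difference was 0.35, and -0.01 to 0.65 with a library left out. The ratio of Igfbp4 to Igfbp5 overlapped with a difference of 0.01. The ratio of ligands to binding proteins was -3.19, -3.48 and -4.56 in the mutant replicates and -3.68, -4.55 and -4.51 in the control replicates, and mutant replicate 3 lay with the controls.

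**Figure D4:**
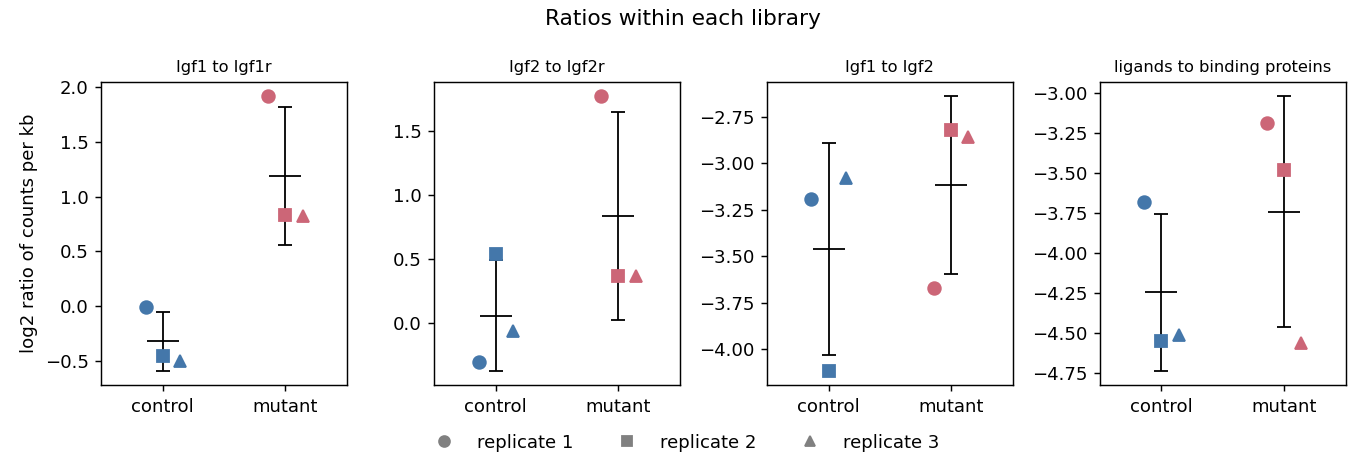
Log2 ratio of counts per kb within each library for 4 pairs, in control (blue) and mutant (red), with marker shapes for replicate numbers and bars for the mean and SD. The groups are apart for Igf1 to Igf1r and overlap for the other 3 ratios.

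The rest of the pathway was read from 6 lists with 67 genes, of which 59 were tested. At an unadjusted p under 0.05 from edgeR, 3 were higher and 3 were lower in mutant IVDs (5.08% each, beside the 2.89% and 4.32% of all genes given above), and 0 passed after adjustment. The median log2 fold change of the 59 genes was 0.10. All mutant libraries lay above all control libraries for 8 of the 59 and below them for 4, beside 5.45% and 5.96% of all genes tested. Among 8 tested proteases and partners of IGF carriers, 1 passed, the protease Pappa2, which cuts IGFBP3 and IGFBP5. Pappa2 was at 4.21, 10.8 and 7.01 CPM in the mutant replicates and at 9.42, 18.5 and 16.2 CPM in the control replicates, a log2 fold change of -0.99 ± 0.37 (SE, edgeR, unadjusted p = 0.0230). Mutant replicate 2 lay above control replicate 1. Leaving out control replicate 2 (edgeR, unadjusted p = 0.0921), control replicate 3 (0.0674), mutant replicate 1 (0.0810) or mutant replicate 3 (0.0671) ended this call. The most expressed genes of this list were the serine proteases Htra1, with a log2 fold change of 0.12 (edgeR, unadjusted p = 0.622), and Htra3, with 0.31 (edgeR, unadjusted p = 0.161).

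Of 10 tested genes of the insulin receptor family and its adaptors, 1 passed. Shc1, an adaptor that links IGF1R to the Ras pathway, was at 141, 102 and 107 CPM in the mutant replicates and at 83.4, 79.3 and 70.4 CPM in the control replicates. The groups were apart, and the log2 fold change was 0.59 ± 0.18 (SE, edgeR, unadjusted p = 0.00962), with an unadjusted p of at most 0.0356 with any 1 library left out. Grb10, an imprinted inhibitor of these receptors and the most expressed gene of the list, had a log2 fold change of -0.20 (edgeR, unadjusted p = 0.364). In the PI3K, AKT and FOXO branch, 1 of 22 genes passed. This was Foxo3, a transcription factor that AKT keeps out of the nucleus, at 37.8, 32.6 and 35.0 CPM in the mutant replicates and 28.1, 25.8 and 24.5 CPM in the control replicates (0.43 on the log2 scale, edgeR, unadjusted p = 0.0232). Foxo3 failed the threshold without control replicate 2 (edgeR, unadjusted p = 0.0630), control replicate 3 (0.0669) or mutant replicate 1 (0.0547). By the mean over the 6 libraries the most expressed genes of this branch were Akt2 and Tsc2, with log2 fold changes of 0.07 and 0.10. Akt1, the highest of the branch in the mutant mean, had a log2 fold change of 0.43 (edgeR, unadjusted p = 0.0870). For Akt1 it was 0.27 without mutant replicate 1 (edgeR, unadjusted p = 0.280) and 0.64 without mutant replicate 2. With a library left out, Akt1 passed the unadjusted threshold in 1 fit (edgeR, unadjusted p = 0.0148).

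In the growth hormone axis, which drives Igf1 in many tissues, 1 of 6 tested genes passed. Stat5a, a transcription factor of growth hormone signalling, was at 38.7, 29.3 and 36.7 CPM in the mutant replicates and at 28.3, 26.5 and 23.6 CPM in the control replicates (0.42 on the log2 scale, edgeR, unadjusted p = 0.0387). The call was lost without control replicate 2 (edgeR, unadjusted p = 0.0755), control replicate 3 (0.110), mutant replicate 1 (0.0946) or mutant replicate 3 (0.0982). Stat5b and the receptor gene Ghr had log2 fold changes of 0.10 and -0.13. Of the 3 genes for proteins that bind Igf2 mRNA, Igf2bp3 was at 7.17, 9.14 and 11.2 CPM in the mutant replicates and at 13.4, 13.7 and 20.4 CPM in the control replicates. The groups were apart, with a log2 fold change of -0.79 ± 0.27 (SE, edgeR, unadjusted p = 0.0144). It did not pass without control replicate 3 (edgeR, unadjusted p = 0.0810) or mutant replicate 1 (0.0613). Igf2bp2, at 11.8 to 14.9 CPM in mutant and 11.1 to 11.8 CPM in control libraries, had a log2 fold change of 0.21 (edgeR, unadjusted p = 0.358). Among 10 tested imprinted genes of fetal growth, only the amino acid transporter Slc38a4 passed. It was at 11.7, 12.4 and 13.5 CPM in the mutant replicates and at 25, 16.1 and 16.4 CPM in the control replicates, with no overlap and a log2 fold change of -0.61 (edgeR, unadjusted p = 0.0246). Without control replicate 1 its log2 fold change was -0.35 (edgeR, unadjusted p = 0.165), and it also did not pass without mutant replicate 1 (0.0813) or mutant replicate 2 (0.0574). Meg3 and Gnas, the most expressed of these, had log2 fold changes of 0.20 and 0.11.

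**Figure D5:**
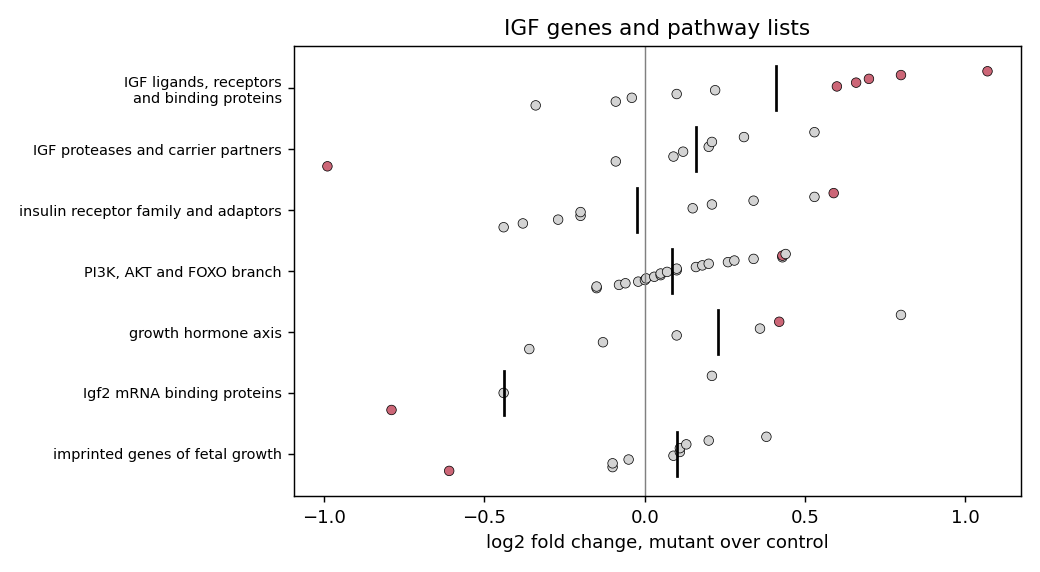
Log2 fold change of mutant over control (horizontal axis) for each tested IGF gene and each tested gene of the 6 pathway lists, with red points for an unadjusted p under 0.05 from edgeR and black bars for medians. The IGF genes have 5 red points, all to the right, and the lists have 0 or 1 on each side.

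The genes whose profile over the 6 libraries was most like that of Igf1 were searched among 9965 genes with a mean of at least 10 CPM. The 5 with the highest correlation were Rab22a, Rassf3, Ccnd2, Aqp1 and Ap2a2, with a Pearson r of log2 CPM of 0.98 to 0.99 and a Spearman rho of 0.94 to 1.0. These are descriptions over 6 libraries that fall into 2 genotypes. Ccnd2, a cyclin of the G1 phase, was at 165, 198 and 171 CPM in the mutant replicates and at 136, 84.2 and 98.8 CPM in the control replicates. Aqp1, which encodes a water channel, was at 162, 172 and 162 CPM and at 122, 65.5 and 83.5 CPM. Rab22a and Ap2a2 act in endosomal and endocytic transport, and Rassf3 encodes a protein with a Ras association domain. Among the other IGF genes the Pearson r with Igf1 was 0.82 for Igfbp5, 0.79 for Igfbp4, 0.68 for Igf2 and 0.66 for Igfbp3 (Spearman rho 0.89, 0.77, 0.77 and 0.89), which placed them at ranks 366, 520, 1075 and 1168 of the 9965 genes. All 4 were higher in the same mutant libraries, and this group difference is part of r. The r was between -0.27 and 0.29 for both receptors, Igfbp6 and Igfbp7.

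Markers of other cell types that an IVD sample can hold were read beside these values. Each count of markers below stands beside the 2.89% of all genes tested that were higher and the 4.32% that were lower at the same threshold. Of 10 markers of tendon and outer annulus, 4 were higher and 0 lower at an unadjusted p under 0.05 from edgeR, and their summed level was 11577 to 21796 CPM in mutant and 6829 to 13297 CPM in control libraries, with an overlap. Col1a2 alone made up 56.5% to 74.3% of this sum. Of 11 osteoblast markers, 3 were higher and 2 lower, and the sums were 13582 to 21951 CPM and 5469 to 14877 CPM. Col1a1 held 70.9% to 92.2% of the osteoblast sum, and the other 10 markers came to 1719.7 to 2046 CPM in mutant and 1590.1 to 2016 CPM in control libraries. Of 12 macrophage markers, 1 was higher, with sums of 92.2 to 194 CPM in mutant and 82.0 to 109.6 CPM in control libraries, and of 10 neutrophil precursor markers 2 were higher, with sums of 35.3 to 165 CPM and 16.6 to 62.8 CPM. Mutant replicate 1, the library with the highest Igf2 and Igfbp3, had the highest macrophage and neutrophil precursor sums. It also had the largest share of reads not aligned, 18.9% compared with 12% to 15.2% in the other 5 libraries, the fewest genes with a count (20421) and the lowest TMM factor (0.892). Endothelial markers had 0 of 10 past the threshold in either direction, with sums of 269.7 to 315 CPM in mutant and 191 to 339.7 CPM in control libraries. Red blood cell precursors had 1 of 8 tested markers higher, with sums of 216 to 461 CPM and 41.0 to 346 CPM. Nucleus pulposus had 0 of 8 tested markers past the threshold, with sums of 3163 to 5842 CPM and 2424 to 4977 CPM. Disc and cartilage had 3 of 12 lower, with sums of 123796 to 152169.7 CPM and 91127 to 153282 CPM, of which Col2a1 was 68.8% to 82.0%. The other 11 disc and cartilage genes came to 25287 to 28107 CPM in mutant and 28419 to 41101 CPM in control libraries, with no overlap. Of single genes tested, 5.96% had all mutant libraries below all control libraries. None of these markers was at 0 in every library. The part of these cell types in the values of the IGF genes was not tested. Without control replicate 1, the library with muscle RNA, the same 5 IGF genes were higher at an unadjusted p under 0.05 from edgeR, where 5.25% of all genes tested were, compared with 2.89% in all libraries. The log2 fold change was then 0.65 for Igfbp3 and 0.79 for Igfbp4, beside the values given above for Igf1, Igf2 and Igfbp5. For the members that did not pass, it was -0.27 for Igf1r, 0.28 for Igf2r, -0.43 for Igfbp2, -0.02 for Igfbp6 and 0.03 for Igfbp7.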

How the data were processed

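RNA of 6 libraries was measured, 3 mutant and 3 control, each from 2 to 3 pooled mice, so p-values measure the spread between pools. The authors deposited raw counts of reads per gene symbol, with htseq-count summary lines that were left out of library sizes and tests. These lines came to more reads than the genes did, which held 40.4% to 44.2% of the total. Per the labels, the submitters' processing notes name STAR 2.5.3a, HTSeq, DESeq2 and GRCm38 (mm10), whereas the study's methods name HISAT2 and StringTie, and the strand setting is not given in the sources used here. A further deposited table holds fold changes and p-values of the authors' own comparison with scaled values, and was not used.

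Counts were tested with edgeR 4.0.16 in R 4.3.3 (TMM, filterByExpr with a count minimum of 10, glmQLFit and glmQLFTest on genotype alone), two-sided, with Benjamini-Hochberg adjustment over 16152 genes. CPM used TMM-scaled library sizes. Correlations used log2 CPM with a prior count of 2. Of 43472 symbols, 93% matched GENCODE M21 (39483 by name, 941 by synonym), which gave coordinates and the union of exons for lengths. Promoters came from RefSeq, where all 10 genes matched. Alternatives were RLE factors, library totals alone, no filter, DESeq2 1.42.0 without a prior, limma-voom (limma 3.58.1) with quality weights, the replicate number as a block, each library left out, the longest transcript as length and Airn counts added to Igf2r, the last chosen after seeing the data. Fits were tested on simulated data, and no result of this is given here.

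The 10 genes, the 6 pathway lists and the 9 lists of cell type markers were chosen with earlier results of these data known. Named genes were the 10 members, the pathway genes at an unadjusted p under 0.05 and the 2 most expressed of each list, overlapping genes with at least 1% of a member's counts, the 5 genes most correlated with Igf1 and up to 3 highly expressed markers. H19, Igfbp1 and Akt1 were named outside this rule, after their values were seen, and Gm49394 was named from the annotation alone. Gpr126 was also named outside it, as the gene deleted in the mutants. With 3 pools per group an exact permutation test of 1 gene cannot go below p = 0.1, and none is given.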

Additional observations from a re-analysis of the deposited data

How the results depend on the processing

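Of the 5 genes higher in mutant IVDs, Igf1 and Igfbp4 kept an unadjusted p under 0.05 under all 12 alternatives. Igf2 did under 9, Igfbp5 under 10 and Igfbp3 under 7. The number of the 10 genes higher at this threshold, 5, was 3 in limma-voom with quality weights, where Igf2 and Igfbp3 were lost (unadjusted p from limma 0.0508 and 0.0744) while 4.54% of all genes were higher, and 4 with library totals alone, where Igfbp3 was lost (edgeR p 0.0660) and 1.44% of all genes were higher. With each library left out it was 2 to 5, with 2 without control replicate 3 (Igf1 and Igfbp4, beside 1.76% of all genes) and 3 without mutant replicate 1 (Igf1, Igfbp4 and Igfbp5, beside 2.24%). Over the 6 fits with a library left out, 1.76% to 5.25% of all genes were higher. The number lower was 0 to 1, Igf1r without mutant replicate 2, where 5.03% of all genes were lower. After adjustment 1 of the 10 passed without the filter on low counts and 1 in DESeq2, Igf1 in each.

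Over all genes, 1164 had an unadjusted p under 0.05 and 1 an adjusted one. The unadjusted count was 2276 without the filter and 618 (without control replicate 3) to 2427 (without control replicate 1) with a library left out. The adjusted count was 245 without the filter, 52 in DESeq2, 0 in limma-voom, 0 with the replicate block and 0 to 31 with a library left out, 31 without control replicate 1. The pathway count of 6 became 2 (without control replicate 3 and without mutant replicate 1) to 12 (without mutant replicate 2), while the share of all genes called in either direction, 7.21%, became 3.77%, 4.76% and 9.76%. The replicate number as a block left 5 of the 10 genes higher, beside 2.45% of all genes. The deviations of same-numbered libraries from their group means correlated at 0.16, -0.13 and 0.10, and not every library correlated best with its own number. Deviations within a group are tied to each other, so these values cannot decide whether same-numbered libraries share a litter or batch. The labels used here do not give this.

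The log2 fold change of 4 of the 10 genes turned, none of which passed a threshold. Igfbp6 was -0.0027 with library totals alone, and Igf2r was 0.03 in limma-voom. With a library left out, Igfbp6 ran from -0.10 (mutant replicate 3 absent, and -0.02 with control replicate 1 absent) to 0.40. Igf2r ran from -0.24 to 0.28 (control replicate 1 absent, and 0.15 with mutant replicate 1 absent). Igfbp2 ran from -0.43 to 0.39 (control replicate 2 absent, and 0.04 and 0.10 with mutant replicates 2 and 3 absent), and Igfbp7 from -0.005 (mutant replicate 3 absent) to 0.54. The cause was not tested. The difference in the log2 ratio of ligands to binding proteins ran from 0.22 to 0.91 with a library left out, and that of Igf1 to Igf2 from 0.02 to 0.62. Dividing by the longest transcript moved 5 of 10 levels per kb by over 1 SD, and library totals moved 0. Igfbp2 had the fewest counts of the 10 genes, at 11 to 40 counts per library.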
